A study of Homo sapiens with 10 samples.

Results

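FOXD1, OTP, SIM1, TRH, POMC, LHX6 and LHX8 are genes used to tell hypothalamic from telencephalic identity, and they were read here by symbol from all 10 libraries of a neural differentiation. They are 7 of the 42335 gene symbols in the table, and each had a value in every library. The cells were H9, an established human embryonic stem cell line. The tested line carried the change labelled SOX1-OT V1 PAKI (V1PAKI here), an edit the labels do not spell out, and the other line is labelled wild type (Ctrl). Each line gave 1 library at each of 5 stages, d0 (undifferentiated cells), d4, d10 and, at day 16, d16D and d16V. Per the labels' protocols, embryoid bodies were grown in neural medium and attached, and an arm meant for ventral telencephalon received the morphogen Sonic hedgehog and its agonist SAG from day 10. The letters D and V are not explained in the labels. Both day 16 arms of a line may share cells up to day 10, and the sources used here do not say whether the V1PAKI line is 1 clone.

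The telencephalon and the hypothalamus arise next to each other at the front of the neural tube, and both form a ventral territory under Sonic hedgehog. The transcription factor NKX2-1 is switched on in both territories, so it cannot tell them apart. In the mouse, NKX2-1 in the ventral telencephalon is followed by LHX6 and LHX8, LIM homeodomain factors of migrating interneurons and of cholinergic and pallidal neurons. In the hypothalamus FOXD1, a forkhead factor of progenitors, comes with RAX, and the factors OTP and SIM1 are needed in the mouse for neuroendocrine neurons, including those that make thyrotropin-releasing hormone from TRH. POMC encodes the precursor of melanocortins and endorphin made by arcuate neurons and by the pituitary. None of these genes is confined to one tissue: FOXD1 also marks kidney stroma and part of the retina, LHX6 is also used in the hypothalamus, and TRH and POMC are transcribed outside the brain.

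The stretches before the starts of 4 of the genes are shown because these genes carry the difference between the arms (FOXD1 and TRH) or gave the next largest values in it (OTP and POMC). Each holds the 100 bases before the annotated start, read 5′ to 3′ on the gene's own strand from RefSeq's promoter table (GRCh38.p14), with capitals on matches to the letters TATAA.
FOXD1, chr5:73448778-73448877, minus strand: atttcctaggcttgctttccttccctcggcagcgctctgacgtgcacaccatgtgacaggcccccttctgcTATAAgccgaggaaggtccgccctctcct
OTP, chr5:77638714-77638813, minus strand: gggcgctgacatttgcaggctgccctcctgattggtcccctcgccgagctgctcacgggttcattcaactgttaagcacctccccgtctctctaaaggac
TRH, chr3:129974620-129974719, plus strand: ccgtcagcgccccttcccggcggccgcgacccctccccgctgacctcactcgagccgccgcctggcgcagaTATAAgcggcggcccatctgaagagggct
POMC, chr2:25168581-25168680, minus strand: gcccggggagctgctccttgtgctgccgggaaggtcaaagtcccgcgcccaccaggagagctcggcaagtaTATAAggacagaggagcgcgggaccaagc
FOXD1, TRH and POMC held TATAA on the gene's strand at -29 to -25 from the start, the usual place of a TATA box, and OTP did not hold these letters in the window searched. All 7 genes matched the table, with 11 windows in all, and 250 bases before the start were searched on both strands. TATAA, a motif chosen after the sequences were seen, lay in 5 of the 11 windows and in at least 1 window of 5 of the 7 genes (LHX6 and LHX8 were the others), against 18.9% of the 35116 windows in the table. The GLI motif GACCACCCA lay in 0 of the 7 genes, against 0.199% of windows. The homeodomain core TAATTA lay in POMC, at -243 to -238, against 4.35% of windows. CAAGTG, which NKX2 factors bind and which also has the form of an E-box, lay in LHX8 at -214 to -209 on the other strand, against 9.50% of windows.

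Between the day 16 arms, the hypothalamic progenitor gene FOXD1 was higher in d16V and the peptide gene TRH was lower in d16V, in both lines. OTP, the neuroendocrine factor, reached 1 FPKM in d16V alone, without passing the test. LHX6 and LHX8, the telencephalic interneuron genes, stayed below 1 FPKM in all 10 libraries. NKX2-1, by contrast, stood at 44.8 FPKM in V1PAKI and 67.5 FPKM in Ctrl at d16V. Changes were tested with limma on log2(FPKM + 1) in a model with stage and genotype, with Benjamini-Hochberg adjustment over the 15779 genes that reached 1 FPKM in 2 or more libraries. FPKM, which corrects fragments for library total and for transcript length, allows levels to be set beside each other between genes. Only the 2 lines replicate a stage, so the p-values measure the spread between the lines over stages and not between repeated cultures. In RNA from whole cultures, fewer cells of a type and less RNA per cell cannot be told apart.

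**Figure D1:**
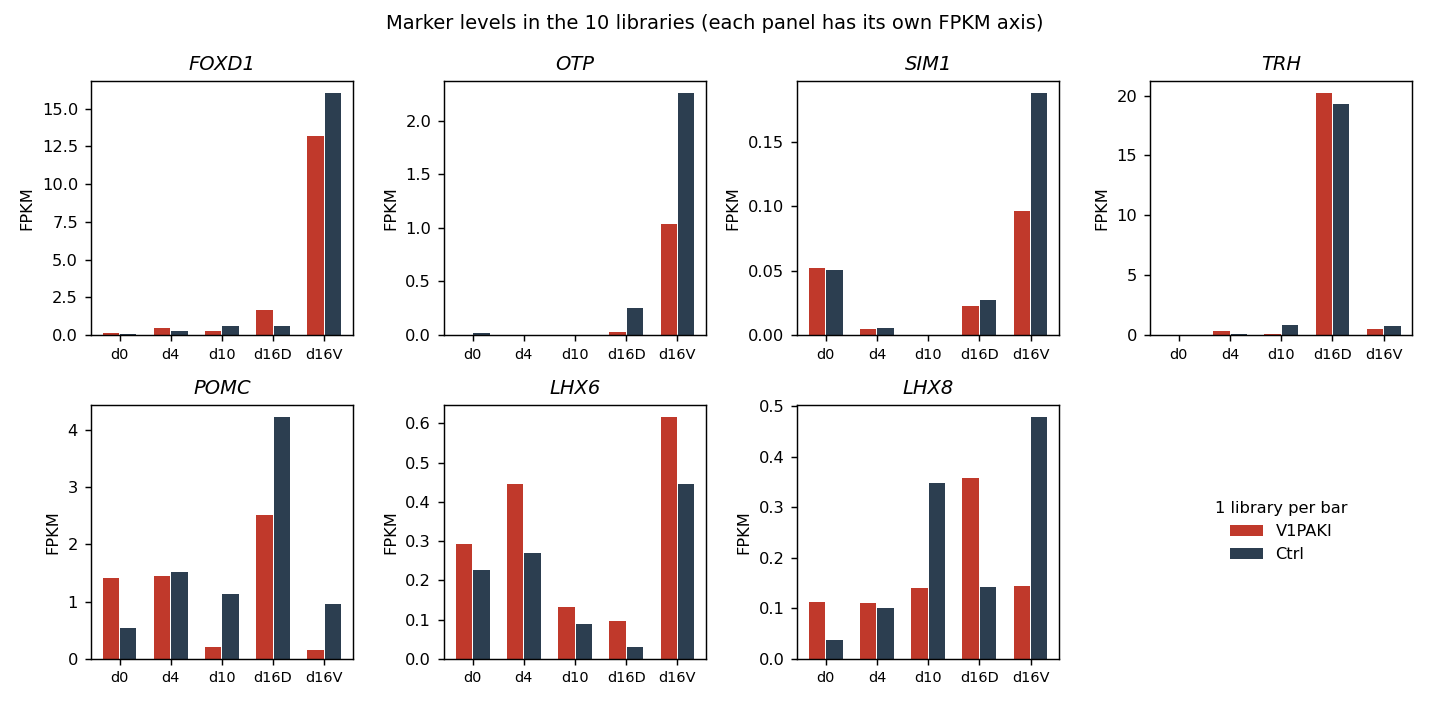
FPKM (vertical axis, a separate scale in each panel) of the 7 markers at the 5 stages, 1 bar per library, V1PAKI left of Ctrl. FOXD1 and OTP stood highest in the 2 d16V libraries and TRH and POMC in the 2 d16D libraries, while SIM1, LHX6 and LHX8 did not exceed 0.188, 0.617 and 0.479 FPKM.

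FOXD1 was at 0.162 FPKM in V1PAKI and 0.0859 FPKM in Ctrl at d0, 0.491 and 0.266 at d4, 0.258 and 0.597 at d10, 1.69 and 0.584 at d16D, and 13.2 and 16.02 at d16V. Both d16V libraries lay above the other 8, and the next highest, V1PAKI d16D, was the one other library above 1 FPKM. Both d0 libraries were the lowest, and the libraries in between, from 0.258 to 0.597 FPKM, followed neither line nor stage. At d16V FOXD1 ranked 2701 of 42335 symbols by FPKM in V1PAKI and 2265 in Ctrl. It was 7.79-fold higher in d16V than in d16D in V1PAKI and 27.5-fold higher in Ctrl. The fitted difference between d16V and d16D was 2.91 on the log2(FPKM + 1) scale (SE 0.29, limma adjusted p = 0.0117), higher in 2 of 2 lines. Against d10, FOXD1 rose by 3.45 in d16V (SE 0.29, limma adjusted p = 0.00289), while d16D minus d10 was 0.54 (limma adjusted p = 0.394). The difference between the arms no longer passed with a pseudocount of 0.1, no filter, a filter at 5 FPKM or TPM (adjusted p between 0.0561 and 0.125), nor without Ctrl d16V (0.143) or V1PAKI d16V (0.0915). The change from d10 missed the threshold without Ctrl d16V (adjusted p = 0.0507). FOXD1-AS1, its antisense gene, did not exceed 0.0127 FPKM.

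Of the 7 genes, 4 reached the level needed for the test, and between d16V and d16D 1 was called higher and 1 lower. Of all genes tested, 0.196% were called higher and 0.165% lower. FOXD1, OTP and TRH passed the filter through the arm where they are high, since without its 2 libraries none of them reached 1 FPKM in 2 libraries. Their being tested is therefore itself tied to the difference. LHX6, LHX8 and SIM1 did not reach 1 FPKM in any library and have no test.

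OTP was listed at 0 in V1PAKI and stood at 0.0170 FPKM in Ctrl at d0, was listed at 0 in both lines at d4 and d10, and stood at 0.0322 and 0.251 at d16D and at 1.04 and 2.26 at d16V. The 2 d16V libraries were the highest, and the Ctrl value at d16D was the next. The difference between d16V and d16D was 1.181 on the log2(FPKM + 1) scale (SE 0.23, limma adjusted p = 0.150), positive in 2 of 2 lines. From d10 to d16V it was 1.37 (SE 0.23, limma adjusted p = 0.0507), which passed with median-of-ratios scaling (0.0463), without the genotype term (0.0341) and without V1PAKI d16D or Ctrl d16D (0.0297 and 0.0280). FOXD1 exceeded OTP 12.7-fold in V1PAKI and 7.10-fold in Ctrl at d16V.

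SIM1, the partner factor of OTP in the mouse neuroendocrine hypothalamus, was at 0.0521 and 0.0503 FPKM in V1PAKI and Ctrl at d0, 0.00476 and 0.00546 at d4, listed at 0 in both at d10, at 0.0224 and 0.0269 at d16D, and at 0.0968 and 0.188 at d16V. At a level under 0.2 FPKM and with unknown depth, no order is read from these values. ARNT2 and POU3F2, which act with SIM1 in the mouse, were well above it. POU3F2 stood at 9.18 FPKM in V1PAKI and 6.95 FPKM in Ctrl at d16V, and at 7.61 and 9.90 FPKM at d16D. POU3F2 rose against d10 in both arms, by 2.07 at d16V (limma adjusted p = 0.00863) and by 2.18 at d16D (0.00788). ARNT2 was not called in any of the contrasts given here, at 12.3 and 13.3 FPKM in d16V and 7.60 and 16.6 FPKM in d16D.

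TRH was listed at 0 in both lines at d0, and stood at 0.305 FPKM in V1PAKI and 0.0919 FPKM in Ctrl at d4, 0.118 and 0.851 at d10, 20.2 and 19.3 at d16D, and 0.525 and 0.733 at d16V. Both d16D libraries were far above the other 8, none of which reached 1 FPKM, and the 2 lines differed little at d16D. TRH ranked 1614 of 42335 in V1PAKI and 1728 in Ctrl there. It was 38.5-fold lower in d16V than in d16D in V1PAKI and 26.3-fold lower in Ctrl. The fitted difference between d16V and d16D was -3.67 on the log2(FPKM + 1) scale (SE 0.26, limma adjusted p = 0.00222), lower in 2 of 2 lines. It missed the threshold with a pseudocount of 0.1 (0.122), a filter at 5 FPKM (0.0608) and without Ctrl d16V (0.0578). From d10 to d16D TRH rose by 3.85 (SE 0.26, limma adjusted p = 0.00359), and it stayed called under all 16 alternatives. In this contrast 1 of the 4 tested markers was called higher and 0 lower, against 0.551% and 0.38% of all genes tested. From d10 to d16V the change of TRH was 0.18 (limma adjusted p = 0.754). In that contrast FOXD1 was the single one of the 4 tested markers called, against 0.52% of all genes tested called higher and 0.292% lower.

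The libraries with the highest TRH were thus not those with the highest OTP. At d16D TRH exceeded FOXD1 12.0-fold in V1PAKI and 33.0-fold in Ctrl, whereas at d16V TRH was 0.0398 and 0.0457 times FOXD1. The receptor gene TRHR did not exceed 0.144 FPKM in any library, and TRHDE, the enzyme that breaks the peptide down, did not exceed 0.460 FPKM.

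POMC was at 1.41 FPKM in V1PAKI and 0.530 FPKM in Ctrl at d0, 1.45 and 1.52 at d4, 0.198 and 1.14 at d10, 2.52 and 4.23 at d16D, and 0.157 and 0.951 at d16V. The 2 d16D libraries were the highest, and the next values came from both d4 libraries and V1PAKI d0, stages without neural differentiation or early in it. The difference between d16V and d16D was -1.51 on the log2(FPKM + 1) scale (SE 0.36, limma adjusted p = 0.288), negative in 2 of 2 lines, and that between d16D and d10 was 1.42 (adjusted p = 0.129). From d10 to d16V the value was -0.09 (adjusted p = 0.917), and it took the other sign without Ctrl d10 or V1PAKI d16V. PCSK1 and PCSK2, which cut the POMC precursor into hormones, stood at 1.53 and 0.714 FPKM in V1PAKI and 1.29 and 1.28 FPKM in Ctrl at d16V, and at 1.02 and 0.432 FPKM in V1PAKI and 3.44 and 2.33 FPKM in Ctrl at d16D. None of the 8 genes of peptide processing was called between the arms, where 0.196% of all genes tested were called higher and 0.165% lower. The pituitary factor POU1F1 was listed at 0 in all 4 day 16 libraries and LHX3 did not exceed 0.0467 FPKM. The 9 pituitary genes together summed to 10.8 and 18.8 FPKM in V1PAKI and Ctrl at d16V and to 37.3 and 7.12 FPKM at d16D, and 2 to 4 of the 9 reached 1 FPKM in a library, among them PITX1, which is also used in other tissues.

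LHX6 was at 0.292 FPKM in V1PAKI and 0.227 FPKM in Ctrl at d0, 0.446 and 0.271 at d4, 0.132 and 0.0886 at d10, 0.0968 and 0.0308 at d16D, and 0.617 and 0.447 at d16V. V1PAKI d16V was the highest library, and Ctrl d16V stood beside V1PAKI d4. Between the arms LHX6 was 6.37-fold higher in d16V in V1PAKI and 14.5-fold higher in Ctrl, on values below 1 FPKM that were not tested. LHX8 was at 0.112 and 0.0368 FPKM in V1PAKI and Ctrl at d0, 0.111 and 0.1001 at d4, 0.140 and 0.348 at d10, 0.358 and 0.143 at d16D, and 0.145 and 0.479 at d16V. For LHX8 the arms overlapped, with d16V above d16D in Ctrl and below it in V1PAKI. At d16V NKX2-1 exceeded LHX6 72.6-fold in V1PAKI and 151-fold in Ctrl, and LHX8 310-fold and 141-fold. In the same libraries FOXD1 exceeded LHX6 21.3-fold and 35.9-fold. Summed, FOXD1, OTP and SIM1 came to 14.3 FPKM in V1PAKI and 18.5 FPKM in Ctrl at d16V, and LHX6 and LHX8 to 0.762 and 0.926 FPKM. Most of the first sum was FOXD1, at 13.2 and 16.02 FPKM, with OTP at 1.04 and 2.26 FPKM. FOXD1 is a factor of progenitors, whereas LHX6 and LHX8, like OTP and SIM1, are factors of neurons. The sums therefore do not set like genes beside each other and do not weigh 1 territory against the other. LDB1, the cofactor that LIM homeodomain proteins bind, lay between 45.1 and 49.9 FPKM in the 4 day 16 libraries.

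**Figure D2:**
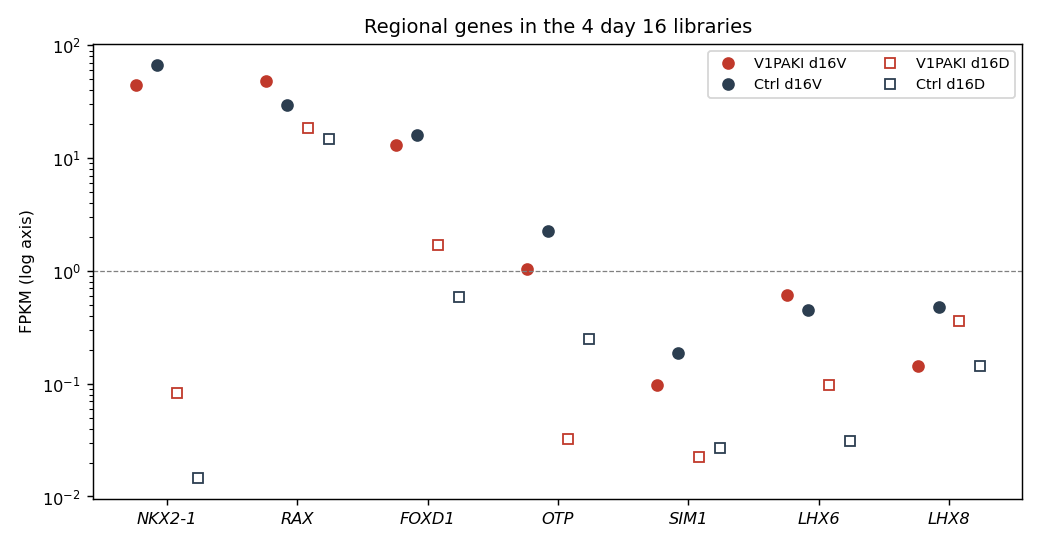
FPKM on a log axis of 7 regional genes in the 4 day 16 libraries, 1 point each, filled circles for d16V, open squares for d16D, red for V1PAKI and dark for Ctrl, with a dashed line at 1 FPKM. At d16V NKX2-1 (44.8 and 67.5), RAX (48.9 and 29.6), FOXD1 (13.2 and 16.02) and OTP (1.04 and 2.26) lay above the line in both lines, and SIM1, LHX6 and LHX8 lay below it.

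Beside the markers, 2 regional genes were read in both arms. NKX2-1, the factor shared by both ventral territories, was near 0 at d16D, at 0.0826 FPKM in V1PAKI and 0.0145 FPKM in Ctrl, and differed between d16V and d16D by 5.74 on the log2(FPKM + 1) scale (SE 0.23, limma adjusted p = 8.79e-05). RAX, a gene of hypothalamus and eye, was at 48.9 and 29.6 FPKM in d16V and at 18.3 and 14.9 FPKM in d16D, a difference of 1.16 (SE 0.30) that did not pass (adjusted p = 0.343). All 4 day 16 libraries thus held RAX above 5 FPKM. Of the hedgehog response genes, PTCH1, GLI1, HHIP and SHH rose in d16V against d16D, by 2.097 to 3.19. Their limma adjusted p lay between 0.00222 (PTCH1) and 0.0492 (GLI1), and 0.196% of all genes tested were called higher. HHIP and SHH passed the filter only through d16V, at no more than 0.480 and 0.467 FPKM elsewhere. Their being tested is therefore tied to the difference. The labels do not say in words which of the 2 arms is the hedgehog-treated one of the protocols.

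By counts of genes at 1 FPKM or more, 4 of 13 telencephalic genes were at level in V1PAKI and 5 of 13 in Ctrl at d16V, and 6 and 10 of 13 at d16D. Of 15 hypothalamic regulators, 7 were at level in V1PAKI and 9 in Ctrl at d16V, and 6 and 4 at d16D. Of 15 hypothalamic peptide genes, 4 were at level in each line at d16V, and 9 in V1PAKI and 6 in Ctrl at d16D. Of all symbols, 31.7% to 33.4% were at that level in these libraries. At this level the regulators and the peptides, both read as hypothalamic, had their higher counts in different arms. Peptide genes were also at level early, 3 in V1PAKI and 2 in Ctrl at d0 and 3 in each line at d4. All symbols at level then made up 29.7% to 31.2%. GAL and TAC3 were at level in all 10 libraries, so the peptide counts do not by themselves mark hypothalamus. The day 16 counts moved with the level chosen. With FPKM summing to between 200509 and 213818 in the day 16 libraries, 1 TPM is a looser level than 0.5 FPKM. At 1 TPM, telencephalic genes numbered 7 in V1PAKI and 10 in Ctrl at d16V, and 9 and 10 at d16D, so the counts were equal in Ctrl. That level lies well below 1 FPKM, where nothing firm can be read. At 0.5 FPKM the telencephalic genes numbered 7 in each line at d16V, and 7 in V1PAKI and 10 in Ctrl at d16D, so the counts were equal in V1PAKI. The regulators numbered 11 and 12 at d16V and 8 and 9 at d16D at 1 TPM, and 7 and 11 at d16V and 7 and 6 at d16D at 0.5 FPKM.

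Differences in this paragraph are on the log2(FPKM + 1) scale, and of all genes tested 0.196% rose and 0.165% fell in d16V against d16D. Among the telencephalic genes, which include LHX6 and LHX8, 0 of 8 tested rose and 3 fell. The 3 are genes of the dorsal side and were high where TRH was high. EMX2 was at 1.40 and 1.64 FPKM in V1PAKI and Ctrl at d16V, against 12.3 and 24.2 FPKM at d16D (-2.86). DMRTA2 was at 0.768 and 1.50 FPKM at d16V, against 14.2 and 9.62 FPKM at d16D (-2.59), and DMRT3 fell by 1.99 (limma adjusted p between 0.00954 and 0.0145 for the 3). Among the hypothalamic regulators, which include FOXD1 and OTP, 2 of 9 tested rose and 0 fell. FOXB1, a forkhead factor of the mammillary region, was at 16.5 and 9.12 FPKM in d16V and at 1.46 and 1.00 FPKM in d16D (2.59, limma adjusted p = 0.0152), beside FOXD1. Among the peptides 0 of 8 tested rose and 1, TRH, fell. Of 12 genes shared by both ventral territories, 11 were tested and 2 rose, NKX2-1 and NKX2-2. Several of the genes counted passed the filter only through the arm where they were high. DMRT3, DMRTA2 and TRH did so through d16D, and FOXD1, OTP, HCRT, NKX2-1, NKX2-2 and NKX2-4, a relative of NKX2-1, through d16V. The counts that hold them are therefore tied to the difference and are no support for the identity of an arm. PAX2, a gene of optic stalk and kidney, rose by 2.17 (limma adjusted p = 0.0369), at 15.1 and 12.5 FPKM in d16V and 2.20 and 2.33 FPKM in d16D.

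**Figure D3:**
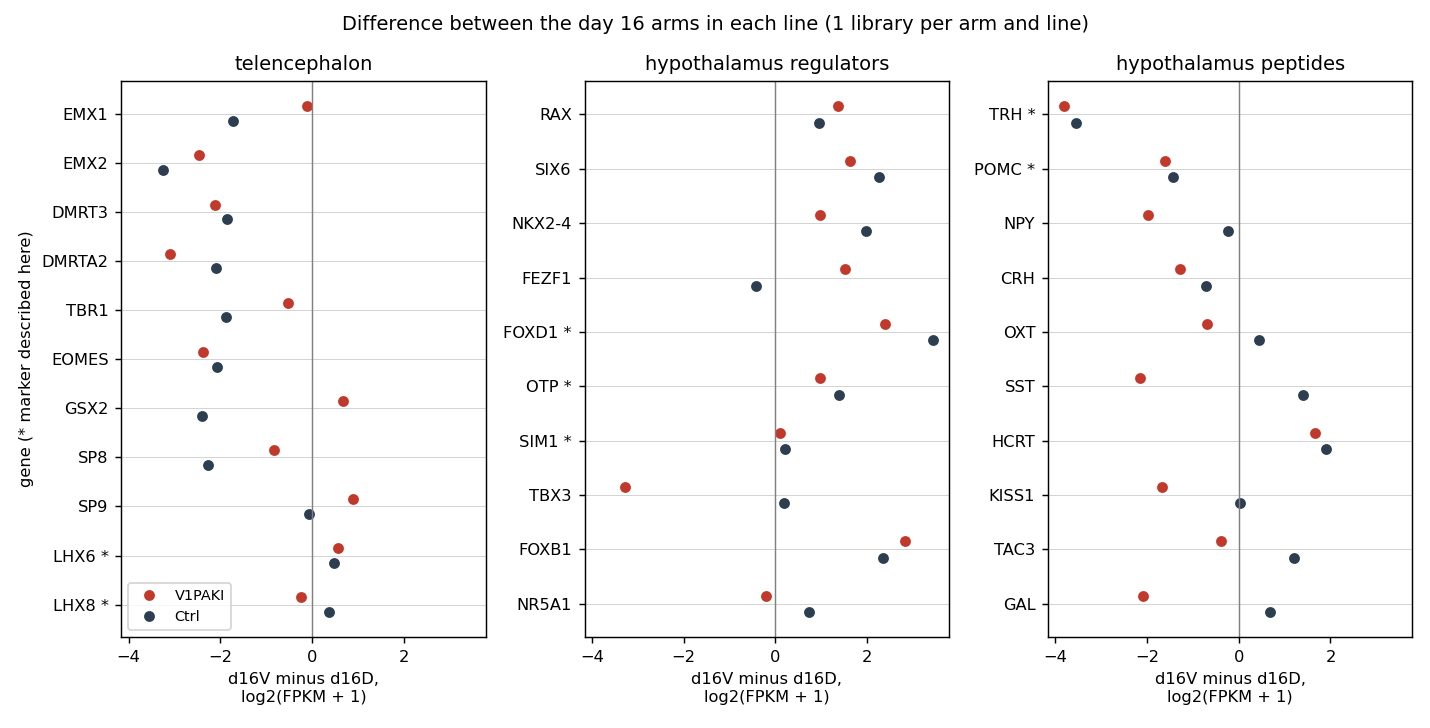
Difference between d16V and d16D on the log2(FPKM + 1) scale (horizontal axis) in V1PAKI (red) and Ctrl (dark), 1 point per line, for the reported list genes with at least 1 FPKM in a day 16 library and for the markers described here (asterisks). FOXD1 (2.40 and 3.43) and OTP lay right of 0 in both lines and TRH (-3.80 and -3.55) and POMC left of it.

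**Figure D4:**
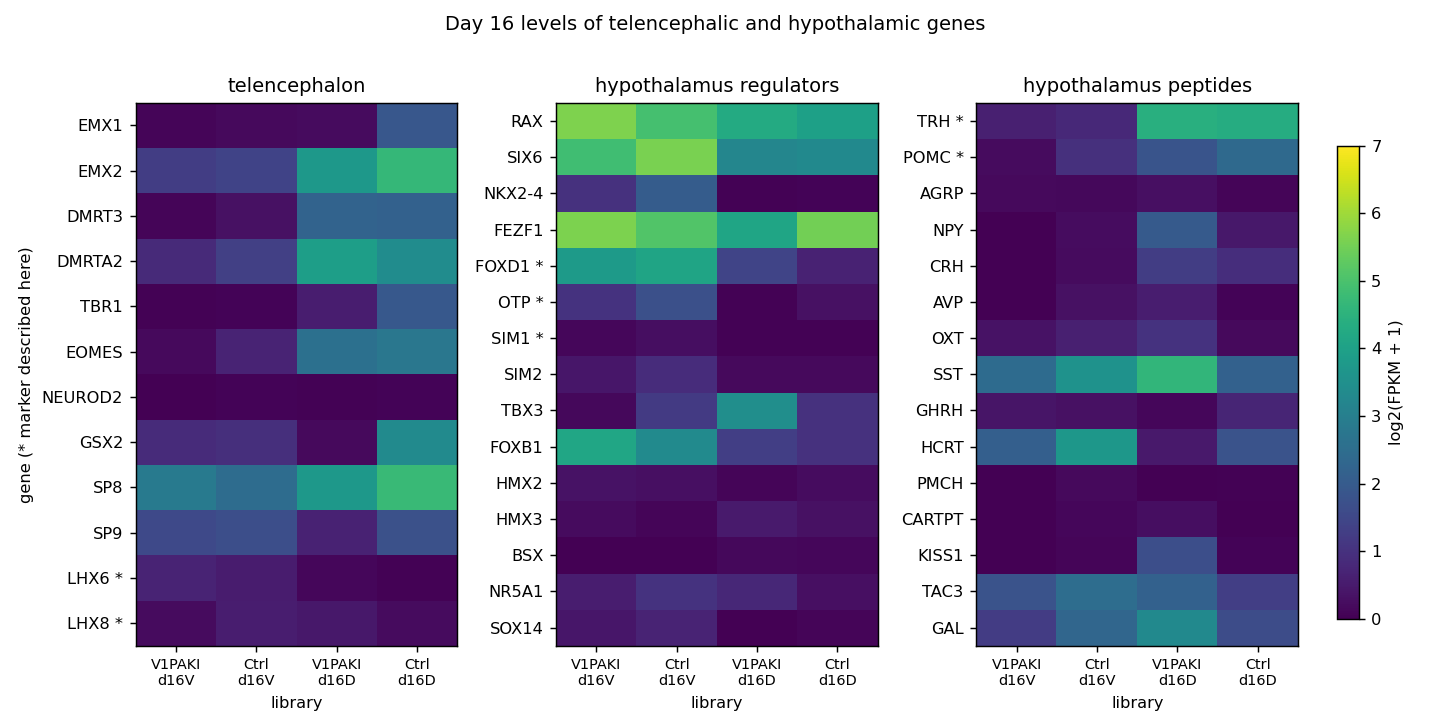
Level of each reported list gene, as log2(FPKM + 1) in colour, in the 4 day 16 libraries (columns) for telencephalic genes, hypothalamic regulators and hypothalamic peptides, with asterisks on the markers described here. FOXD1 and FOXB1 were brighter in the 2 d16V columns, EMX2, DMRTA2 and TRH in the 2 d16D columns, and LHX6, LHX8 and SIM1 stayed dark in all 4.

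Between the lines, none of the 4 tested markers was called over the 5 stages, against 0% of all genes called higher and 0.019% lower in V1PAKI, or 161 higher and 229 lower at an unadjusted p under 0.05. The values (V1PAKI minus Ctrl, log2) were 0.10 for FOXD1, -0.12 for TRH, -0.20 for OTP and -0.31 for POMC (limma adjusted p = 1.00 for each), and those of FOXD1 and TRH took the other sign with a library left out. At d16D 0 of the 3 markers with at least 1 FPKM in a line differed by 1 or more on the log2 scale, where 5.5% of genes did so upward and 3.46% downward. At d16V 0 of 2 did, where 0.412% did so upward and 2.49% downward. With 1 library per line, these differences have no replicate check. At d16D 6 of the 10 telencephalic genes at level were lower in V1PAKI by 1 or more, where TRH was at 20.2 FPKM in V1PAKI and 19.3 FPKM in Ctrl.

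The libraries differed in other cells as well. The 12 mesenchyme markers summed to 9.62 FPKM in V1PAKI and 288 FPKM in Ctrl at d16V, and to 1102 and 182 FPKM at d16D, with 4 to 10 of the 12 at 1 FPKM or more. The part of these cells in the values of FOXD1, TRH, OTP and POMC was not tested. The 7 kidney and intermediate mesoderm genes summed to 72.5 FPKM in V1PAKI and 53.7 FPKM in Ctrl at d16V and to 18.7 and 21.0 FPKM at d16D. At d10, where FOXD1 was at 0.258 and 0.597 FPKM, they summed to 50.25 and 25.06 FPKM. At day 16, 2 to 4 of the 7 were at 1 FPKM or more in a library. Of the 5 at that level in any day 16 library, 3 were higher in d16V in both lines, against 25.3% of all genes, and for 2 the lines differed. Most of the sum came from SALL1, at 55.4 and 38.3 FPKM in d16V and 13.1 and 16.8 FPKM in d16D, and from PAX2, both of which are also used in the neural tube and eye. WT1 and OSR1 of the same list were at 0.0201 and 0.0775 FPKM in V1PAKI and at 0 and 0.215 FPKM in Ctrl at d16V. The part of such cells in FOXD1 was not tested. The 9 neural markers were all at 1 FPKM or more in the 4 day 16 libraries, with sums of 639 and 628 FPKM at d16V and 365 and 646 FPKM at d16D. From d4 to d10 none of the 4 tested markers was called, against 0.919% of genes tested called higher and 0.52% lower. RAX rose by 3.18 (limma adjusted p = 0.0127).

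The genes most like each marker over the 10 libraries, by Pearson's r of log2(FPKM + 1), included NKX6-1 (0.992) and HHIP (0.979) for FOXD1. For TRH they were DMRT3 (0.995), DMRTA2 (0.981) and HMX1 (0.981), and for OTP NKX6-2 (0.998), NEUROG3 (0.995) and MIR7-3HG (0.994). For FOXD1, TRH and OTP the likeness rests on a pair of day 16 libraries of one arm that stand above the rest. For POMC the highest were ZNF609 (0.920), ALDH1A3 (0.894) and GRIP2 (0.887). These are descriptions over libraries that share lines and stages.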

How the data were processed

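The authors deposited FPKM values for 42335 gene symbols in 10 libraries of H9 cells. Per the submitters' processing notes, cutadapt 1.18, HISAT2 2.1.0 and Cufflinks were used with GRCh38. Annotation, filters and strand handling: the sources used here do not give them. With no counts the depth is unknown, and no counting interval or floor is given. FPKM summed to between 200509 and 256270 per library. A value of 0 can be a failed estimate and is described as listed at 0.

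Values were taken as log2(FPKM + 1), which understates changes of low genes. The 15779 genes that reached 1 FPKM in 2 or more libraries entered a limma 3.58.1 model under R 4.3.3 (stage and genotype, eBayes with trend, 4 residual degrees of freedom, 7.77 after moderation), two-sided, with Benjamini-Hochberg adjustment over all genes and a threshold of 0.05. The code was tested on simulated data. Within a stage, the lines were compared without a test by a log2 difference of 1. Named were the 7 markers, NKX2-1, RAX, list genes that passed in a contrast and the 3 genes most like each marker, except some that are not reported here; other list genes given with values were chosen after their values were seen. The markers, lists and tests were chosen with earlier results of these data known. Of the lists, NEUROD6 and MC3R were not analysed here. Alternatives were the pseudocount, the filter, TPM, median-of-ratios scaling, no genotype term, each library left out and other levels for the counts. Sequences and starts came from RefSeq (GRCh38.p14), read in Python 3.11.15. Figures were drawn with matplotlib 3.10.9.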

Additional observations from a re-analysis of the deposited data

How the results depend on the processing

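The labels carry no replicate numbers, and the fit blocks the stage contrasts by line through its genotype term. The rise of TRH from d10 to d16D stayed called under all settings run. Between d16V and d16D, 2 markers were called, against 0 with a pseudocount of 0.1, 1 with no filter, 0 with a filter at 5 FPKM, 1 with TPM, and 0 to 2 with a library left out (0 without Ctrl d16V, 1 without V1PAKI d16V). Between d16V and d10, 1 marker was called, against 2 with median-of-ratios scaling, 2 without the genotype term, and 0 to 2 with a library left out (0 without Ctrl d16V, 2 without either d16D library). With a library left out, the d16V minus d10 values lay for TRH between -0.20 and 0.56 and for POMC between -0.42 and 0.24, and the line differences for FOXD1 between -0.0689 and 0.208 and for TRH between -0.212 and 0.0341. Telencephalic genes at level numbered 6 in Ctrl d16D, 1 in Ctrl d16V and 2 in V1PAKI d16V at 5 FPKM, 7 in V1PAKI d16V at 0.5 FPKM, and 10 in Ctrl d16V and 7 in V1PAKI d16V at 1 TPM. Hypothalamic regulators numbered 5 in Ctrl d16V at 5 FPKM, and 9 in Ctrl d16D and 11 in V1PAKI d16V at 1 TPM. The causes were not tested. Over all genes, the calls under the alternatives ranged from 2 to 101 between the arms, 29 to 384 from d10 to d16D, 16 to 681 from d10 to d16V, 0 to 447 from d4 to d10 and 0 to 4 between the lines. TPM moved the median gene by 0.10 from d10 to d16V and by 0.13 from d4 to d10. Depth is unknown, so nothing firm can be read from levels well below 1 FPKM.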

Other observations

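Another hypothalamic peptide gene, HCRT, which encodes orexin, had its highest levels in the arm opposite to TRH. It was at 3.38 FPKM in V1PAKI and 11.9 FPKM in Ctrl at d16V, 0.390 and 2.46 FPKM at d16D, and 0.0804 and 0.389 FPKM at d10. HCRT rose from d10 to d16V by 2.62 on the log2(FPKM + 1) scale (SE 0.41, limma adjusted p = 0.0380). Its difference between d16V and d16D, 1.78, did not pass (0.249). HCRT passed the filter only through d16V, since outside d16V it reached 1 FPKM in Ctrl d16D alone. Its being tested is therefore tied to the rise, and the call is no support for the identity of the arm. In the mouse, orexin neurons arise in the lateral hypothalamus. SST, the somatostatin gene, was at 4.49 and 10.9 FPKM at d16V and 23.3 and 3.49 FPKM at d16D, with the lines going opposite ways. AGRP, PMCH and CARTPT did not exceed 0.230 FPKM at day 16.

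NKX2-4, a hypothalamic relative of NKX2-1, was at 1.01 and 3.12 FPKM at d16V, and no higher than 0.0510 FPKM at d16D, a difference of 1.47 that did not pass (limma adjusted p = 0.151).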
